A study of Homo sapiens with 7 samples.

Results

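Claudins are the membrane proteins that form tight junction strands between neighbouring cells, and EPCAM is an adhesion protein of epithelia and pluripotent cells that binds CLDN7. The 10 genes described here are 9 claudins (CLDN1, CLDN3, CLDN4, CLDN5, CLDN6, CLDN7, CLDN10, CLDN11 and CLDN18) and EPCAM, chosen by symbol among 23262 genes with values and read in all 7 libraries of a series on cardiac differentiation of human embryonic stem cells (hESC). Each of the 7 groups is 1 library, so no difference has a replicate check and no test is given. Every library comes from a line named H3 in the labels with a double reporter: eGFP reads out NKX2-5, which encodes a heart transcription factor, and mCherry reads out alpha-MHC, a myosin of heart muscle whose gene is MYH6. The number after NKX2- in the cell line label differs between the 7 samples, and they were treated as 1 line. The labels do not say how many clones it comprises.

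The groups are undifferentiated hESC (day 0), day 3 CD13+/ROR2+ cells (labelled mesoderm progenitor), day 3 CD13-/ROR2- cells (labelled endoderm progenitor), an NKX2-5+ (labelled cardiac progenitor) and an NKX2-5- fraction (cell type labelled unknown) of CD13+/ROR2+ cells on day 7, and an a-MHC+ (labelled cardiomyocytes) and an a-MHC- fraction (labelled unknown) of cells positive for CD13, ROR2 and NKX2-5 on day 14. They are called here hESC, day 3 CD13+/ROR2+, day 3 CD13-/ROR2-, day 7 NKX2-5+, day 7 NKX2-5-, day 14 aMHC+ and day 14 aMHC-. CD13 and ROR2 are surface proteins used for sorting, and whether the later fractions were sorted for them on day 3 or at collection is not stated. The CD13 gene ANPEP and ROR2 were at 12.0 and 20.6 FPKM (fragments per kilobase of transcript, scaled to the mapped fragments of the library) in day 3 CD13+/ROR2+, 0.984 and 3.16 in day 3 CD13-/ROR2-, and at most 1.72 and 4.16 in the later libraries. NKX2-5 was at 70.2 FPKM in day 7 NKX2-5+ and 1.18 in day 7 NKX2-5-. MYH6 was at 342 FPKM in day 14 aMHC+ and still at 136 in day 14 aMHC-, beside 531 in day 7 NKX2-5+ and 43.4 in day 7 NKX2-5-. No drug or gene deletion is named for any group, and the agents used for differentiation were not analysed here.

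Each claudin crosses the membrane several times, and its first outer loop meets claudins of the next cell to seal the gap or to form a pore for ions. Inside the cell the claudin tail binds scaffold proteins such as ZO-1 (TJP1) and ZO-3 (TJP3), and occludin and the MARVELD proteins join the same strands. Which claudins a cell makes differs between tissues: CLDN5 belongs to endothelium, CLDN11 to myelin and Sertoli cells, CLDN18 to stomach and lung, and CLDN6 to embryonic epithelia and pluripotent cells. Cells that leave the pluripotent epithelium to form mesoderm pass through an epithelial-to-mesenchymal transition, in which SNAI and ZEB proteins repress junction genes.

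FPKM values are scaled by length, so levels of different genes can be compared. Absolute depth is unknown. From the steps between low values, day 7 NKX2-5+ was the shallowest library that could be placed, at 0.603 times the depth of hESC, and the other 4 reached 1.31 to 3.10 times. Day 7 NKX2-5- could not be placed. The labels state a minimum number of reads per sample. If that number mapped, 1 read on the 1831-base CLDN4 transcript would be worth 0.0455 FPKM and 1 read on the 1724-base EPCAM transcript 0.0483 FPKM, so values below about 1 FPKM rest on few reads. A listed 0 can be a failed estimate, since 11 of 1416 genes with at least 15 FPKM in the median library were at 0 in some library, and no fold is given against a 0.

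The labelled cell types were read against marker genes. Of 8 pluripotency genes, 8 were at 1 FPKM or more in hESC and in day 3 CD13-/ROR2-, with summed levels of 961 and 930 FPKM, against 377 in day 3 CD13+/ROR2+ and 5.85 to 29.3 in the later libraries. The endoderm transcription factor genes SOX17 and FOXA2 were at 2.71 and 0.0874 FPKM in day 3 CD13-/ROR2-, lower than in day 3 CD13+/ROR2+ (17.8 and 3.88 FPKM), so the library labelled endoderm progenitor is named here by its surface markers. All 6 cardiomyocyte genes were at 1 FPKM or more in the 4 later libraries, with sums from 578 FPKM in day 7 NKX2-5- to 4880 in day 14 aMHC+. Hepatic and visceral endoderm genes, such as AFP, summed to 353 FPKM in day 7 NKX2-5-, 62.9 in day 7 NKX2-5+ and at most 30.3 elsewhere. In bulk RNA, fewer cells of a type and less RNA per cell cannot be told apart.

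CLDN6 and EPCAM were the most abundant of the 10 genes, and they parted during differentiation. In hESC they stood at 52.3 and 57.1 FPKM, which placed them above 98.1% and 98.3% of all genes. In day 14 aMHC+ CLDN6 was still at 37.6 FPKM while EPCAM was at 1.16. In all, 4 of the 10 genes (EPCAM, CLDN6, CLDN7 and CLDN4) reached 5 FPKM in some library, and 9 reached 1 FPKM. The number at 1 FPKM or more was 6 in hESC and in day 3 CD13-/ROR2-, 5 in day 3 CD13+/ROR2+, and 2 or 3 in each later library.

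**Figure D1:**
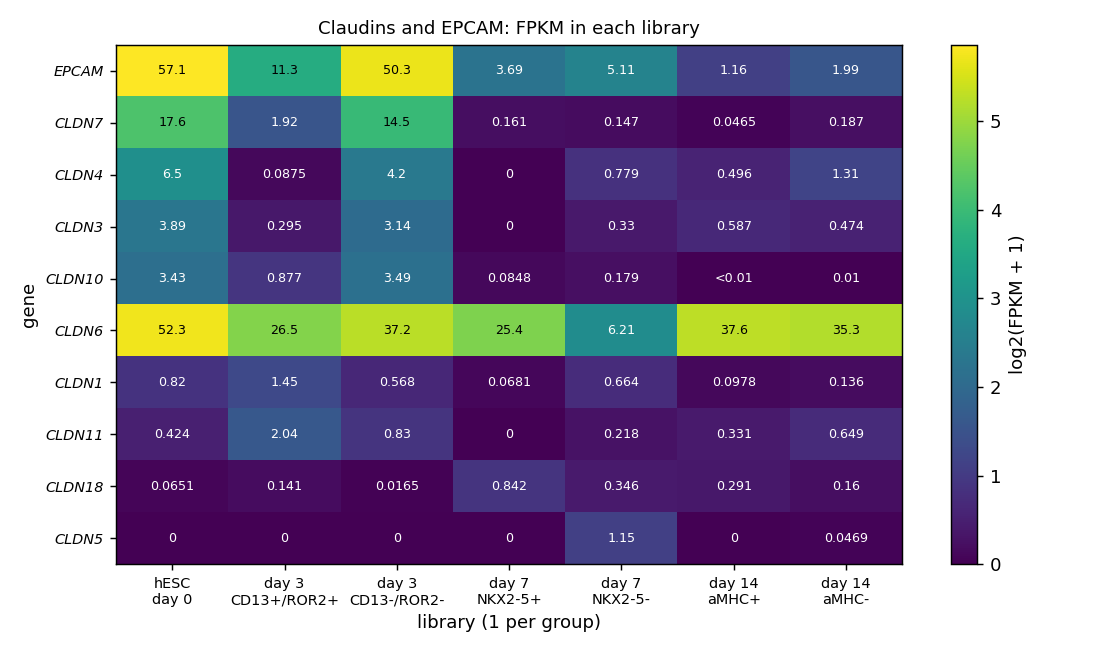
FPKM of EPCAM and the 9 claudins (rows) in the 7 libraries (columns, 1 library per group), with colour as log2(FPKM + 1) and the FPKM printed in each cell. EPCAM, CLDN7, CLDN4, CLDN3 and CLDN10 are highest in hESC and day 3 CD13-/ROR2-, while CLDN6 stays at 25.4 FPKM or more in every library except day 7 NKX2-5- (6.21).

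EPCAM, whose cleaved inner part can also enter the nucleus as a signal, was at 57.1 FPKM in hESC, 50.3 in day 3 CD13-/ROR2-, 11.3 in day 3 CD13+/ROR2+, 5.11 in day 7 NKX2-5-, 3.69 in day 7 NKX2-5+, 1.99 in day 14 aMHC- and 1.16 in day 14 aMHC+. The order runs from undifferentiated cells to the oldest fractions, with the day 3 CD13-/ROR2- library beside hESC. Day 3 CD13+/ROR2+ was 5.06-fold below hESC and 4.46-fold below CD13-/ROR2-. Both differences passed the size rule used for all comparisons, a log2 ratio of FPKM + 1 of at least 2 in size (4-fold) with 5 FPKM or more in the higher library. The call against CD13-/ROR2- was lost without small RNA and histone genes (-1.95), that against hESC at equal sums (-1.84), and both with a pseudocount of 5. Day 7 NKX2-5+ was 3.06-fold below day 3 CD13+/ROR2+, and day 14 aMHC+ 3.18-fold below day 7 NKX2-5+, which did not pass it. The gap of the day 7 pair was small, at a log2 ratio of -0.38, and -0.04 after median-ratio scaling, which levels the libraries over 7780 genes above 1 FPKM in all of them.

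CLDN7, which sits mainly along the lateral membrane and binds EPCAM, was at 17.6 FPKM in hESC and 14.5 in day 3 CD13-/ROR2-. It was at 1.92 FPKM in day 3 CD13+/ROR2+, 9.22-fold below hESC and 7.56-fold below CD13-/ROR2-, and both differences passed the size rule. In the 4 later libraries it lay between 0.0465 FPKM (day 14 aMHC+) and 0.187 (day 14 aMHC-), a level of a few reads. Day 7 NKX2-5+ and NKX2-5- were 11.9-fold and 13.0-fold below day 3 CD13+/ROR2+, with log2 ratios of -1.33 and -1.35 that did not pass the rule, all 3 libraries being under 5 FPKM. Over the 7 libraries, which share 1 cell line and days of collection, the log2 levels of CLDN7 and EPCAM had a Pearson r of 0.97.

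The letters upstream of these genes can be read for CACCTG, the core of the E-box that SNAI and ZEB proteins bind. RefSeq windows of 300 bases (250 before to 50 after an annotated start, build GRCh38.p14) were matched by symbol for 8 of the 10 genes, 12 windows in all, since some genes have more than 1 start. CLDN5 and EPCAM had no entry. CACCTG or its reverse complement CAGGTG was in 4 of the 12 windows, against 20.6% of all 35116 windows. The window of 1 CLDN7 start held 5 such matches, a number reached by 33 windows of all (0.0940%), while the window of its other start held 0. Because these are the stretches of the 4 genes that hold the motif, 1 is shown for each of CLDN3, CLDN6 and CLDN18, and 3 stretches for CLDN7. They are written 5′ to 3′ on the gene's strand with the motif in capitals:
CLDN7 minus strand chr17:7262635-7262664: tttcttcctcctCACCTGggcaaggagggg
CLDN7 minus strand chr17:7262596-7262625: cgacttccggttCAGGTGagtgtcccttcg
CLDN7 minus strand chr17:7262470-7262499: tcaggtgcgcccCACCTGtccgcccgcacc
CLDN3 minus strand chr7:73770221-73770246: caaagccacaggCAGGTGcaggcgca
CLDN6 minus strand chr16:3018134-3018163: ttatctccttcgCAGGTGagtccggggcta
CLDN18 plus strand chr3:137998705-137998734: gtagggcaagccCAGGTGgcactggtgagt
Counted from the annotated start, with negative positions before it, the 5 CLDN7 matches begin at -174, -135, -20, -9 and 6. The match at -20 lies in small letters within the stretch shown for the match at -9. The CLDN3 match begins at 37, the CLDN6 match at 33 and the CLDN18 match at -99. Whether the CLDN7 matches lie in exons of a CLDN7 transcript was not examined. CLDN3, CLDN7 and CLDN6 all have a match, and the window of CLDN4 has none. For day 3 CD13+/ROR2+ over hESC their log2 ratios were -1.92, -2.68, -0.96 and -2.79 in that order. A match is a run of letters and not a shown binding site. The motif AACCNGTT, which grainyhead-like factors such as GRHL2 bind, was in 0 of the 12 windows (0.968% of all), and the GC box GGGCGG or its reverse complement in 9 (45.0% of all).

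CLDN3 and CLDN4 are barrier-forming claudins, neighbours on chromosome 7, and both serve as receptors for an enterotoxin of Clostridium perfringens. CLDN4 was at 6.50 FPKM in hESC, 4.20 in day 3 CD13-/ROR2- and 0.0875 in day 3 CD13+/ROR2+. Its difference between day 3 CD13+/ROR2+ and hESC (74.3-fold on plain FPKM, a log2 ratio of -2.79 on FPKM + 1) passed the size rule. Against day 3 CD13-/ROR2- the log2 ratio was -2.26, but neither library reached 5 FPKM, so it was not called. The fold rests on the 0.0875 FPKM of the lower library, which amounts to very few reads.

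CLDN3 was at 3.89 FPKM in hESC, 3.14 in day 3 CD13-/ROR2- and 0.295 in day 3 CD13+/ROR2+, at log2 ratios of -1.92 and -1.68 for the last against the other two. Both genes were listed at 0 in day 7 NKX2-5+, the shallowest of the libraries whose depth could be placed. In the remaining later libraries CLDN3 was at 0.330 to 0.587 FPKM and CLDN4 at 0.496 to 1.31, the highest being day 14 aMHC-. The levels of CLDN4 in day 7 NKX2-5-, day 14 aMHC+ and day 14 aMHC- (0.779, 0.496 and 1.31 FPKM) were all above its day 3 CD13+/ROR2+ level, unlike those of CLDN7 and EPCAM. The CLDN3 and CLDN4 log2 levels had an r of 0.96 over the 7 libraries.

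CLDN10, whose splice forms make pores for cations or anions in kidney and other epithelia, was at 3.43 FPKM in hESC and 3.49 in day 3 CD13-/ROR2-. It was at 0.877 FPKM in day 3 CD13+/ROR2+, 3.91-fold and 3.98-fold lower, with log2 ratios of -1.24 and -1.26 that did not reach the size rule. In the later libraries it was at 0.179 FPKM or less, and in day 14 aMHC+ at 2.17e-105, in effect 0. Its log2 levels had an r of 0.995 with CLDN7. Up to 58.7% of the bases of 1 CLDN10 transcript lie in exons of DZIP1 on the opposite strand (GENCODE release 29), and the library kit does not mark strand, so reads of both genes cannot be told apart there. DZIP1 was at 2.56, 3.05 and 2.63 FPKM in hESC, day 3 CD13+/ROR2+ and day 3 CD13-/ROR2-, and its part in the CLDN10 values was not tested.

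CLDN6 was the claudin with the highest level in every library. It was at 52.3 FPKM in hESC, 37.2 in day 3 CD13-/ROR2-, 26.5 in day 3 CD13+/ROR2+, 25.4 in day 7 NKX2-5+, 6.21 in day 7 NKX2-5-, 37.6 in day 14 aMHC+ and 35.3 in day 14 aMHC-. The lowest value was that of day 7 NKX2-5-, and the other 6 lay between 25.4 and 52.3 FPKM. The day 14 pair differed by 1.06-fold. CLDN6 passed the size rule in 0 of the 8 comparisons. In day 3 CD13+/ROR2+ its log2 ratio was -0.96 against hESC, and 4.43% of all genes had a lower one. Against day 3 CD13-/ROR2- it was -0.48, with 12.2% of all genes lower.

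The day 7 pair was close to the size rule for CLDN6. NKX2-5+ was 4.09-fold above NKX2-5- on plain FPKM, at a log2 ratio of 1.87, higher than that of 99.5% of all genes. It passed with a pseudocount of 0.1 (2.01) and after median-ratio scaling (2.30). Day 7 NKX2-5- was likewise 4.26-fold below day 3 CD13+/ROR2+ (-1.93, or -2.07 with a pseudocount of 0.1, but -1.69 after scaling). For day 7 NKX2-5+ over day 3 CD13+/ROR2+ the sign turned with scaling (-0.06 as deposited, 0.61 scaled), and so it did for day 14 aMHC+ over day 7 NKX2-5+ (0.55 and -0.05). Small RNA and histone genes took 66.4% of the FPKM sum in day 7 NKX2-5- against 8.69% in day 7 NKX2-5+. With these genes left out and sums made equal, the CLDN6 ratio of the day 7 pair was 2.38.

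On chromosome 16, CLDN6 lies beside CLDN9 and has TNFRSF12A, the receptor gene of the cytokine TWEAK, on the opposite strand. Their exons share 0 bases with the 1369-base CLDN6 transcript and 40 bases with the 1739-base one. TNFRSF12A was at 5.84 FPKM in hESC, 1.76 in day 3 CD13+/ROR2+ and 3.04 in day 3 CD13-/ROR2-. It was at 11.5 FPKM in day 7 NKX2-5+, 22.7 in day 7 NKX2-5-, 65.2 in day 14 aMHC+ and 57.3 in day 14 aMHC-. A part of TNFRSF12A in the CLDN6 values was not tested. CLDN9, the closest neighbour in the family, was at 0.393 FPKM or less in all 7 libraries.

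CLDN1, a barrier claudin of the epidermis, and CLDN11, the claudin of myelin and of the blood-testis barrier, had their highest levels in day 3 CD13+/ROR2+, where EPCAM and CLDN7 were lower than in hESC and day 3 CD13-/ROR2-. CLDN11 was at 2.04 FPKM there, 0.424 in hESC, 0.830 in day 3 CD13-/ROR2-, 0.218 in day 7 NKX2-5-, 0.331 in day 14 aMHC+ and 0.649 in day 14 aMHC-, and listed at 0 in day 7 NKX2-5+. CLDN1 was at 1.45 FPKM in day 3 CD13+/ROR2+, 0.820 in hESC, 0.568 in day 3 CD13-/ROR2-, 0.664 in day 7 NKX2-5- and 0.0681 to 0.136 in the 3 NKX2-5+ libraries. Neither gene reached 5 FPKM anywhere, so neither could pass the size rule. For day 3 CD13+/ROR2+ against CD13-/ROR2- the log2 ratios were 0.73 for CLDN11 and 0.65 for CLDN1. Of the bases of the CLDN11 transcript, 27.2% lie in exons of AC026316.5 on the same strand. A part of that gene in the CLDN11 values was not tested.

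CLDN18, a claudin of gastric and lung epithelium, was highest in day 7 NKX2-5+, at 0.842 FPKM, and lowest in day 3 CD13-/ROR2-, at 0.0165. It was at 0.346 FPKM in day 7 NKX2-5-, 0.291 in day 14 aMHC+, 0.160 in day 14 aMHC-, 0.141 in day 3 CD13+/ROR2+ and 0.0651 in hESC. It did not reach 1 FPKM in any library. Of 5 foregut and lung genes, 5 were listed at 0 in day 7 NKX2-5+, among them NKX2-1 and SFTPC. In hESC, day 3 CD13-/ROR2- and day 14 aMHC+ 4 of the 5 were at 0, and in day 3 CD13+/ROR2+ 3. In day 7 NKX2-5- and day 14 aMHC- 2 were at 0. Where 4 were at 0, the other gene was SOX2, also a pluripotency gene. It was at 26.3 FPKM in hESC, 68.0 in day 3 CD13-/ROR2- and 0.105 in day 14 aMHC+. Depth differs as well, at 0.603 times that of hESC in day 7 NKX2-5+ and 3.10 times in day 14 aMHC-. SFTPC was listed at 0 in every library, as were 3537 of the 23262 genes with values.

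CLDN5, the main claudin of endothelial tight junctions, was listed at 0 in 5 libraries and stood at 1.15 FPKM in day 7 NKX2-5- and 0.0469 in day 14 aMHC-. Of 10 endothelial marker genes, 9 were at 1 FPKM or more in day 7 NKX2-5-, against 5 in day 7 NKX2-5+ and 3 or 4 in each other library. VE-cadherin (CDH5) stood at 6.17 FPKM in the NKX2-5- library of day 7 against 1.01 in its NKX2-5+ partner, and the junction protein gene ESAM at 6.12 against 1.18. Elsewhere CDH5 was at 0.133 FPKM or less and ESAM at 0.376 or less. PECAM1, TEK, TIE1 and EMCN were also highest in day 7 NKX2-5-, but the remaining listed genes were not. VWF was highest in day 3 CD13+/ROR2+ (1.14 FPKM against 0.377 in day 7 NKX2-5-) and EGFL7 in day 14 aMHC- (6.82 against 5.67). KDR and FLT1 were highest in day 3 CD13-/ROR2- (16.2 and 22.4 FPKM, against 9.28 and 10.1 in day 7 NKX2-5-). The sums of the 10 genes ranged from 11.9 FPKM in day 7 NKX2-5+ to 45.6 in day 7 NKX2-5-, with 41.2 in day 3 CD13-/ROR2- through FLT1 and KDR, which pluripotent cells also expressed (8.94 and 13.3 FPKM in hESC). The part of endothelial cells in the CLDN5 value was not tested.

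**Figure D2:**
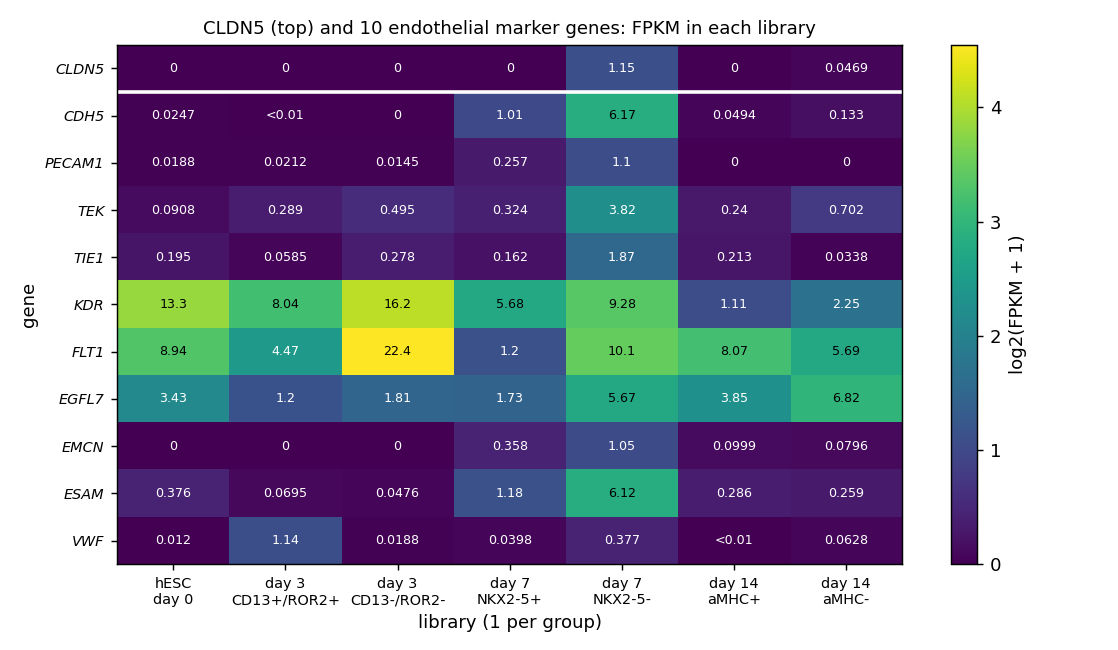
FPKM of CLDN5 (top row) and 10 endothelial marker genes in the 7 libraries (columns, 1 library per group), with colour as log2(FPKM + 1) and the FPKM printed in each cell. CLDN5 reaches 1 FPKM in day 7 NKX2-5- (1.15), the column in which CDH5 (6.17) and ESAM (6.12) are also highest. VWF, EGFL7, KDR and FLT1 are highest in other columns.

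The claudin family as a whole was read from the 9 members and the 14 other claudin genes of the table, 23 in all. Their summed level was 91.5 FPKM in hESC, 71.9 in day 3 CD13-/ROR2-, 40.6 in day 3 CD13+/ROR2+, 30.3 in day 7 NKX2-5+, 14.8 in day 7 NKX2-5-, 43.7 in day 14 aMHC+ and 43.0 in day 14 aMHC-. CLDN6 made up 57.1% of the sum in hESC and 51.8% in day 3 CD13-/ROR2-, where CLDN3, CLDN4 and CLDN7 together made up 30.6% and 30.4%. In day 3 CD13+/ROR2+ these 3 genes held 5.66% of the sum and CLDN6 65.2%. CLDN6 held 83.8% in day 7 NKX2-5+, 86.0% in day 14 aMHC+ and 82.1% in day 14 aMHC-, but 42.0% in day 7 NKX2-5-.

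The claudin next to CLDN6 in level was CLDN7 in hESC and in day 3 CD13-/ROR2-. In the other 5 libraries it was CLDN12, a broadly expressed claudin that lacks the usual tail motif for scaffold binding, at 1.66 to 3.29 FPKM. CLDN12 was at 3.78 FPKM in hESC, and its range over the 7 libraries was narrow beside those of EPCAM and CLDN7. The ratio of CLDN6 to EPCAM was 0.916 in hESC, 0.740 in day 3 CD13-/ROR2- and 2.35 in day 3 CD13+/ROR2+. It was 6.88 in day 7 NKX2-5+ and 1.21 in day 7 NKX2-5-, and reached 32.5 in day 14 aMHC+ and 17.8 in day 14 aMHC-. These ratios are within a library and do not depend on scaling between libraries.

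**Figure D3:**
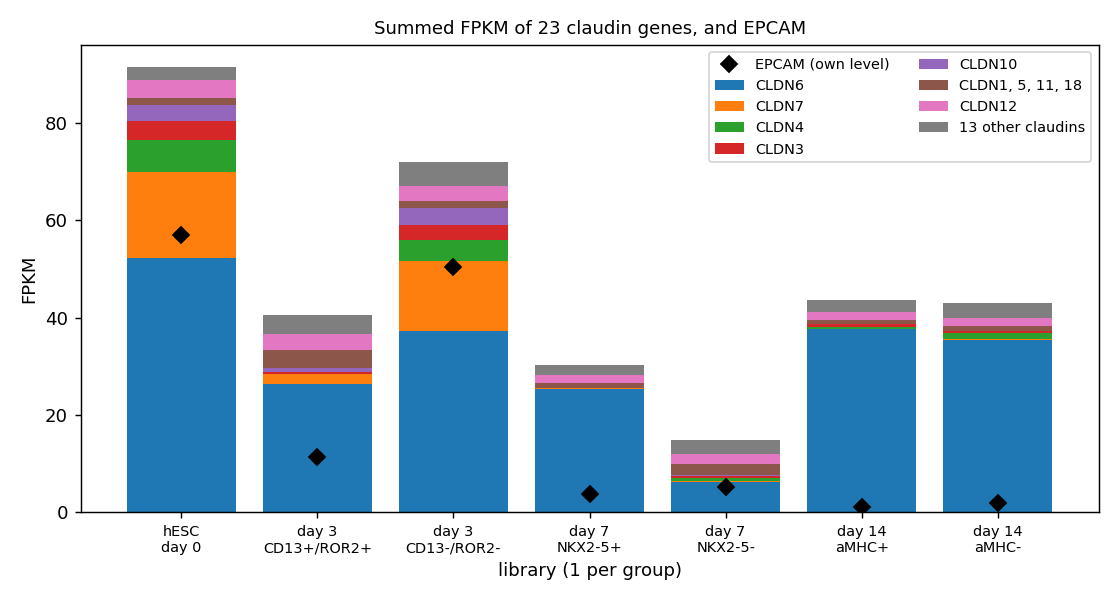
Stacked bars show the summed FPKM of 23 claudin genes in the 7 libraries (1 library per group, axis from 0), coloured by gene, and black diamonds show the FPKM of EPCAM. The CLDN7 segment is visible in hESC and day 3 CD13-/ROR2- (17.6 and 14.5 FPKM) and small elsewhere, while CLDN6 fills 82.1% to 86.0% of the bars of day 7 NKX2-5+ and day 14.

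On day 3, 2 of the 10 genes were called lower in CD13+/ROR2+ than in CD13-/ROR2- (EPCAM and CLDN7) and 0 higher, where 0.641% of all 23262 genes were called lower and 0.933% higher. The median log2 ratio of the 10 genes was -0.87, and that of all genes 0. Against hESC, 3 of the 10 (EPCAM, CLDN7 and CLDN4) were called lower in day 3 CD13+/ROR2+ and 0 higher, beside 0.641% and 1.13% of all genes, with a median of -1.10 for the 10 genes and 0 for all. Both comparisons share the day 3 CD13+/ROR2+ library. EPCAM (-2.06 and -2.24) and CLDN7 (-2.41 and -2.68) were inside the size rule, and CLDN3 (-1.68 and -1.92) was outside it. With a pseudocount of 5, which weighs low levels less, 0 of the 10 passed in either comparison. There 0.185% and 0.198% of all genes were called lower.

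Day 3 CD13-/ROR2- and hESC did not differ by the size rule at any of the 10 genes, where 0.357% of all genes were called higher and 0.288% lower. Their log2 ratios lay between -0.53 (CLDN4) and 0.36 (CLDN11). In the day 7 pair 0 of 10 were called (0.434% of all genes higher in NKX2-5+ and 1.16% lower), with CLDN6 just outside the rule at 1.87 and CLDN4 at -0.83. After median-ratio scaling CLDN6 was called.

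From day 3 CD13+/ROR2+ to day 7 NKX2-5+ 0 of 10 were called (1.06% of all genes higher and 2.2% lower). The lowest log2 ratios were -1.61 (CLDN11), -1.39 (EPCAM), -1.33 (CLDN7) and -1.20 (CLDN1), and CLDN18 was at 0.69. CLDN11 was listed at 0 in day 7 NKX2-5+. After median-ratio scaling the ratios were -1.51 for CLDN11, -1.15 for CLDN7, -1.07 for CLDN1 and -0.82 for EPCAM. From day 3 CD13+/ROR2+ to day 7 NKX2-5- 0 of 10 were called (1.37% higher and 0.941% lower), with CLDN6 at -1.93, CLDN7 at -1.35, CLDN4 at 0.71 and CLDN5 at 1.11. These 2 comparisons share their day 3 library. There 8 of the 10 genes were under 5 FPKM, so that a still lower level later could not pass the rule.

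In the day 14 pair 0 of 10 were called (0.159% of all genes higher in aMHC+ and 0.086% lower), with log2 ratios between -0.62 (CLDN4) and 0.15 (CLDN18). From day 7 NKX2-5+ to day 14 aMHC+ 0 of 10 were called (1.75% higher and 0.189% lower). EPCAM had the lowest ratio (-1.12, or -1.60 after scaling), and CLDN3 and CLDN4, both listed at 0 on day 7, had 0.67 and 0.58.

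**Figure D4:**
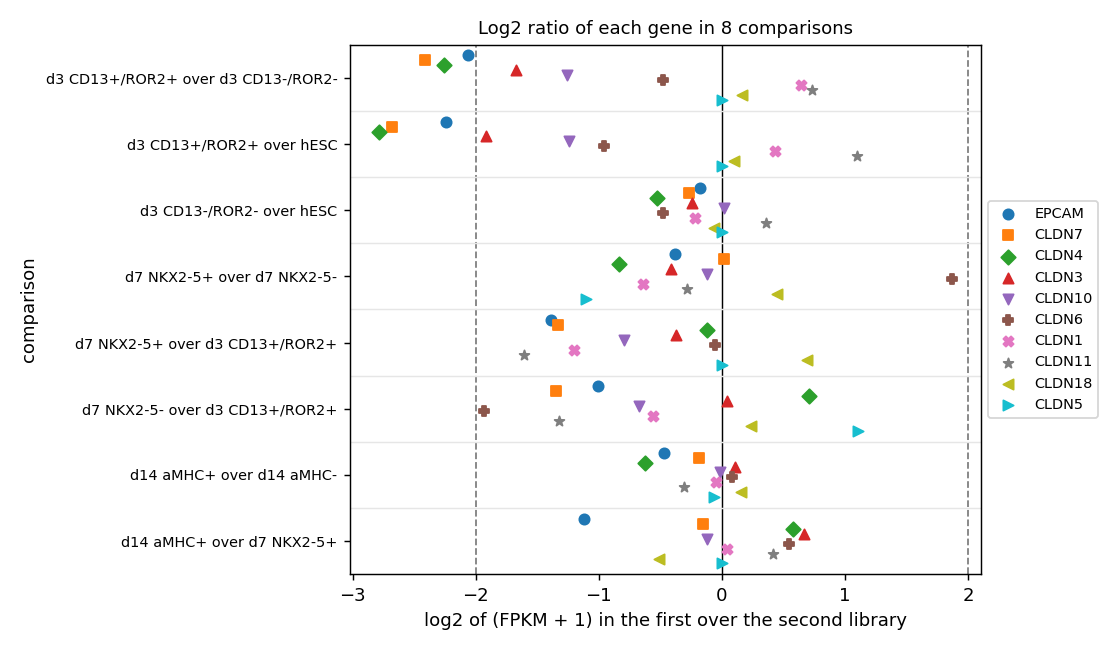
Log2 of (FPKM + 1) in the first over the second library (x axis) for each of the 10 genes (symbols) in 8 comparisons (rows), with dashed lines at the size of 2 that the rule uses. EPCAM and CLDN7 lie left of -2 in both upper rows, CLDN4 lies there too although it reached the needed 5 FPKM only against hESC, and CLDN6 is at 1.87 in the day 7 pair.

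Partners of claudins in the tight junction were read from a list of 20 genes. Of these scaffold and partner genes, 1 was called lower in day 3 CD13+/ROR2+ than in CD13-/ROR2- (MARVELD3, a strand protein, 0.172 against 5.84 FPKM) and 0 higher, with a list median of -0.51, beside 0.641% of all genes lower and 0.933% higher. Against hESC 0 were lower and 1 higher (MAGI3, a scaffold gene, 7.09 against 0.478 FPKM), with a median of -0.83, beside 0.641% of all genes lower and 1.13% higher. The MARVELD3 and MAGI3 calls were lost with a pseudocount of 5. In the other 6 comparisons 0 of 20 were called. The scaffold gene TJP1 was at 26.3 FPKM in hESC and between 26.6 and 38.5 in the other libraries, and CGNL1, which encodes paracingulin, was at 8.14 FPKM in hESC, 15.6 in day 3 CD13+/ROR2+, 36.2 in day 14 aMHC+ and 44.7 in day 14 aMHC-. TJP3, OCLN (occludin), MARVELD2, MARVELD3, CGN (cingulin) and CRB3 were each highest in hESC or day 3 CD13-/ROR2-.

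Of 7 genes for proteases that cleave EPCAM, their inhibitors and other partners, 0 passed the rule in day 3 CD13+/ROR2+ against either library, beside the same shares of all genes. ST14, the membrane protease matriptase, was at 4.81 FPKM in hESC and 0.303 in day 3 CD13+/ROR2+, and PRSS8 (prostasin) at 16.0 and 6.30. SPINT2, an inhibitor of these proteases, was at 66.3 FPKM in hESC, 25.7 in day 3 CD13+/ROR2+, 10.4 in day 7 NKX2-5+ and 66.6 in day 14 aMHC+. SPINT2 was called higher in day 14 aMHC+ than in day 7 NKX2-5+ (2.57), as were 1.75% of all genes. That call was lost after median-ratio scaling (1.99), at equal sums (1.77) and without small RNA and histone genes (1.66). FHL2 was called higher in day 7 NKX2-5+ than in day 7 NKX2-5- (31.6 against 3.60 FPKM), as were 0.434% of all genes. Against day 3 CD13+/ROR2+ (6.37 FPKM) FHL2 was also called higher in day 7 NKX2-5+, as were 1.06% of all genes. There PRSS8 was called lower (0.239 against 6.30 FPKM), as were 2.2%. Both calls against day 3 were lost with a pseudocount of 5.

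Of 14 epithelial regulators, 8 were called lower in day 3 CD13+/ROR2+ than in CD13-/ROR2- and 0 higher (median -2.11), where 0.641% of all genes were lower and 0.933% higher. Among the 8 were RAB25 (10.1 against 53.3 FPKM), the E-cadherin gene CDH1 (3.15 against 45.0) and MAL2 (2.90 against 22.3). KLF5 was at 4.06 FPKM against 2.61 and was not called. Against hESC 3 of 14 were lower and 0 higher (median -1.51), beside 0.641% and 1.13% of all genes. With a pseudocount of 5, 1 of the 14 was called lower in each comparison, beside 0.185% and 0.198% of all genes. Of 6 repressors of claudins and EPCAM, 1 was called higher in day 3 CD13+/ROR2+ in each of these comparisons (0.933% and 1.13% of all genes higher), SNAI2 at 25.01 FPKM against 0.529 and 0.177. ZEB1 and ZEB2 were at 2.80 and 4.68 FPKM in day 3 CD13+/ROR2+ and at 0.145 or less in hESC and day 3 CD13-/ROR2-. In day 7 NKX2-5-, the library where CLDN6 was lowest, SNAI2 was at 24.0 FPKM and ZEB2 at 7.20. In day 3 CD13+/ROR2+, with a like SNAI2 level, CLDN6 was at 26.5 FPKM. Day 7 NKX2-5+ had SNAI1 at 0.130 FPKM and SNAI2 at 2.66, with EPCAM at 3.69 and CLDN7 at 0.161. A part of these repressors in the levels of claudins and EPCAM was not tested.

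**Figure D5:**
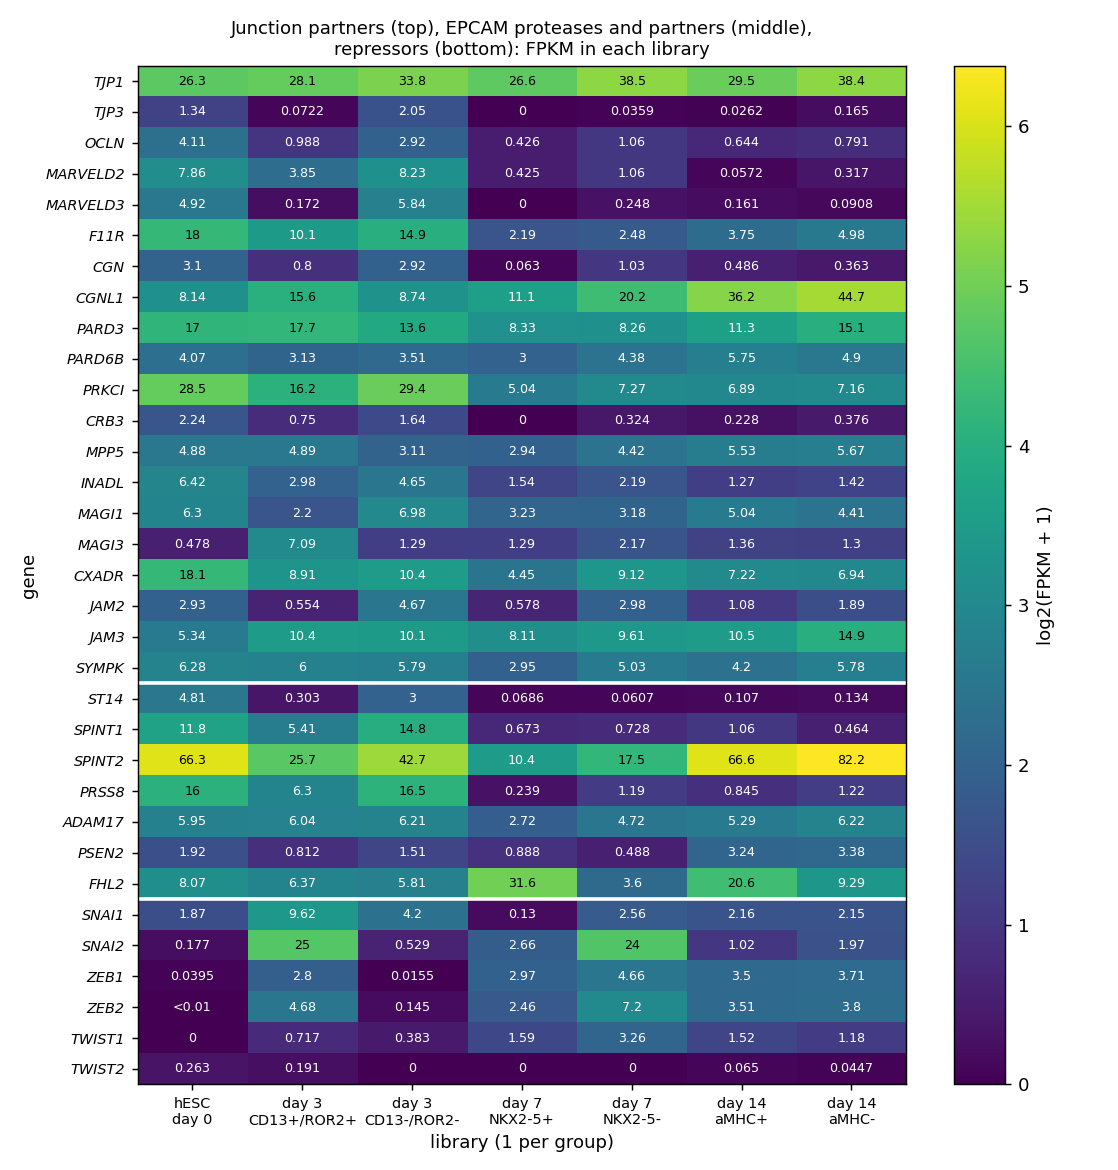
FPKM of 20 tight junction scaffold and partner genes (top), 7 proteases, inhibitors and partners of EPCAM (middle) and 6 repressor genes (bottom) in the 7 libraries (columns, 1 library per group), with colour as log2(FPKM + 1) and the FPKM printed in each cell. TJP1 is at 26.3 FPKM or more in every library, while SNAI2 stands at 25.01 in day 3 CD13+/ROR2+ and 24.0 in day 7 NKX2-5- and at 2.66 or less elsewhere.

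Keratins of simple epithelia did not follow EPCAM. KRT8 was at 18.8 FPKM in hESC, 389 in day 14 aMHC+ and 595 in day 14 aMHC-, and KRT19 at 15.5, 133 and 197 in the same libraries, where EPCAM was at 57.1, 1.16 and 1.99. The other genes of the simple epithelium list besides keratins went down as EPCAM did. CDH1, GRHL2 and ESRP1 were at 23.2, 4.30 and 31.8 FPKM in hESC, and each at 0.369 or less in both day 14 libraries. On day 7, KRT8 was at 261 FPKM in the NKX2-5- library and 20.7 in the NKX2-5+ one.

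Among 7567 genes with 5 FPKM or more in some library, those most like each member over the 7 libraries were found by Pearson r of log2(FPKM + 1). For EPCAM they were PIF1 (r = 0.997), WDHD1 (0.993), VASH2 (0.993) and MND1 (0.992). PIF1 is a DNA helicase, WDHD1 takes part in DNA replication and MND1 in meiotic recombination. For CLDN7 they were LIAS (0.998), HTR7 (0.998), MAL2 (0.998) and HLA-DOA (0.997), of which MAL2, a membrane traffic protein of epithelia, is also among the 14 epithelial regulators.

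CLDN4 was most like SLC29A1 (0.994), a nucleoside transporter gene, SCG5 (0.973), SOX13 (0.971) and PPM1H (0.965). For CLDN6 the values were lower, with DBNDD2 (0.977), NPM3 (0.948), LARS2 (0.934) and C7orf44 (0.932). DBNDD2 was at 10.8 FPKM in hESC, 9.38 and 11.4 in the day 14 libraries and in effect 0 in day 7 NKX2-5-. NPM3 was at 0.240 FPKM in day 7 NKX2-5- and at 3.24 or more elsewhere. With 7 libraries of 1 line such values are a description.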

How the data were processed

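RNA of 7 libraries was measured by RNA-seq. The labels' protocols describe a double sort into preservative, TruSeq RNA v2 library preparation and single reads of 50 bases. The authors deposited 1 table of FPKM values, made with Cufflinks on hg19 per the submitters' processing notes. The aligner, annotation and versions are not given in the sources. Of 23368 genes, 106 without values were left out. The FPKM sum of a library ranged from 108220 to 414781, and relative depth was read from steps between low values.

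Log2 ratios of FPKM + 1 were computed in 8 comparisons (pandas 2.3.3, Python 3.11.15), with 1 library per group and no test. A gene was called at a size of 2 or more where the higher library reached 5 FPKM. The code of the rule was run on a copy of 1 library with set folds and no noise. Its calls there follow from the definition, so the rate of false calls was not measured. Alternatives were pseudocounts of 0.1 and 5, no minimum, median-ratio scaling, sums of 1000000, and omission of 1689 symbols of small RNA and histone genes at equal sums. The 10 genes, the 12 lists of 106 genes and the rules were chosen with earlier results of these data known. Some genes are not reported here and were taken out of the lists. The text names the 10 members, list genes that passed or were most abundant, further list genes, markers of the labelled types and neighbours chosen after their values were seen, and the 4 genes most like each member that reached 5 FPKM. The 6 amnion or surface ectoderm markers summed to 21.6 FPKM in day 3 CD13-/ROR2- and to 4.27 or less elsewhere. Promoter windows are from RefSeq (GRCh38.p14), transcripts from GENCODE release 29. No coordinates of hg19 are given.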

Additional observations from a re-analysis of the deposited data

How the results depend on the processing

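No paired analysis was possible because each group is 1 library, and for the same reason no library could be left out of a group. Among the log2 ratios of single genes under the 6 alternatives, 453 kept their side of the size rule, 20 passed newly, 7 no longer passed, and 0 of the called ratios changed sign. As reported, only 2 ratios of the day 3 pair and 3 of day 3 CD13+/ROR2+ over hESC were called. Of the 10 genes, 6 never reached 5 FPKM as deposited. Most of the 453 were thus ratios not called in either setting, so this count does not measure robustness. The number of the 10 genes called in the day 3 pair was 2 as reported, 3 with no minimum (CLDN4 added at -2.26), 0 with a pseudocount of 5, 4 at equal sums of 1000000 and 1 without small RNA and histone symbols (EPCAM at -1.95). The share of all genes called lower was 0.641% as reported, and 0.718%, 0.185%, 2.20% and 0.538% under these alternatives. Against hESC the 3 calls in day 3 CD13+/ROR2+ became 0 with a pseudocount of 5 and 4 at equal sums, where EPCAM was lost (-1.84), CLDN3 was added (-2.64) and CLDN11 was called higher (2.20). Of all genes, 0.198% were called lower with a pseudocount of 5, and 1.41% lower and 3.40% higher at equal sums. In the day 7 pair 0 calls became 1 without small RNA and histone symbols, with a pseudocount of 0.1 and after median-ratio scaling, in each case CLDN6, and 2 at equal sums. Of all genes, 0.793%, 0.550%, 0.714% and 8.95% were called higher under these alternatives, against 0.434% as reported. For day 7 NKX2-5- over day 3 CD13+/ROR2+ 0 became 1 with a pseudocount of 0.1 and 4 at equal sums, for day 7 NKX2-5+ over day 3 CD13+/ROR2+ 4 at equal sums, and for day 14 aMHC+ over day 7 NKX2-5+ 1 at equal sums. For day 7 NKX2-5- over day 3 CD13+/ROR2+ 1.29% of all genes were called lower with a pseudocount of 0.1. At equal sums 9.47% were called lower and 1.49% higher there, against 0.941% and 1.37% as reported. For day 7 NKX2-5+ over day 3 CD13+/ROR2+ equal sums gave 3.38% lower and 4.51% higher. For day 14 aMHC+ over day 7 NKX2-5+ they gave 2.54% and 2.08%. Equal sums change both the scaling between libraries and the level against pseudocount and minimum. Among all genes called, the share called higher was 27.2% in the day 7 pair, 44.4% after median-ratio scaling, 94.2% at equal sums and 48.9% without small RNA and histone symbols. For day 7 NKX2-5+ over day 3 CD13+/ROR2+ it was 32.5%, and 58.9%, 57.1% and 61.2% under the same alternatives. For day 14 aMHC+ over day 7 NKX2-5+ it was 90.3%, and 65.3%, 44.9% and 44.1%. Median-ratio scaling added 0.43, 0.69 and -0.61 to the log2 ratios of these comparisons before the pseudocount. For day 7 NKX2-5- over day 3 CD13+/ROR2+ the share was 59.2% and 13.6% at equal sums. For the day 3 pair it was 59.3% and 48.7% at equal sums, and for day 3 CD13-/ROR2- over hESC 55.3% and 79.6%. For the day 14 pair it was 64.9%, 85.0% at equal sums and 100% without small RNA and histone symbols. The cause of these moves was not tested. Values under 1 FPKM, which include all of CLDN18 and most of CLDN1, CLDN5 and CLDN11, are limited by depth.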
